A study of Mus musculus with 6 samples.

Results

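Genes of the Mef2, Six- and Eya-families encode transcription factors and cofactors of the muscle lineage, and 9 of them are described here: Mef2a, Mef2c, Mef2d, Six2, Six4, Six5, Eya1, Eya3 and Eya4. They were taken by symbol from the authors' table of 39010 genes, with the line of highest mean kept for a symbol, and each of the 9 symbols stood on 1 line. The study sequenced RNA of mouse hindlimb muscle (wild type, strain background given as mixed) at 3 stages, postnatal day 2 (P2), day 7 (P7) and day 14 (P14). Each stage has 2 libraries, 6 in all, and the stated purpose was to profile gene expression in growing neonatal muscle. The labels name no engineered allele and no treatment. The tissue is whole muscle, so fewer cells of a type and less RNA per cell cannot be told apart in any value below.

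MEF2 proteins are MADS-box factors that bind an A/T-rich element in the control regions of many muscle genes and work together with the myogenic bHLH factors. They are held in check by class IIa histone deacetylases and released by calcium and kinase signalling. SIX-family proteins are homeodomain factors that bind the MEF3 element, and EYA proteins, which are also phosphatases, bind them and act as their coactivators. In mouse muscle, SIX-family and EYA proteins act upstream of the myogenic factors in the embryo and support the fast fibre programme later.

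Expression is given as FPKM, fragments per kilobase of transcript scaled to the sequenced total, so that levels of different genes can be set side by side. Tests used log2(FPKM + 1) of the 13566 genes that reached 1 FPKM in 2 or more libraries. A gene was called at a limma p-value below 0.05 after Benjamini-Hochberg adjustment over all of them. Of the 9 genes 8 passed this filter, and Six2 did not. A "log2 change" is a difference of stage means on the log2(FPKM + 1) scale, which understates the change of low genes, with its standard error (SE). Levels are the mean ± SD of n = 2 libraries.

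Each library had 12175 to 13337 genes at 1 FPKM or more. Absolute depth is unknown. Relative to P2 replicate 1, depth read from the FPKM steps of short RNAs at 4 transcript lengths was between 70.1% and 93.7% in the other libraries, and it was lowest at P14. The design text calls the replicates biological but does not say whether each is 1 animal, so p-values measure the spread between these libraries only. Xist was above 10 FPKM in P2 replicate 2 and P7 replicate 1, while 4 libraries, both of P14 among them, had less than 1, so P14 held no library of the Xist-expressing sex. Skeletal muscle genes were abundant: Tnnt3, a fast troponin, lay between 1108 and 4072 FPKM, while the 3 measured neuronal markers stayed below 1. Ttn, the giant sarcomere protein gene, was listed at 0 in P14 replicate 1 and at 925.8 in P14 replicate 2, so an exact 0 in this table can be a failed estimate. The libraries of P2 differed in their non-muscle markers: summed levels were 968.7 and 1659 FPKM for fibroblast, 76.3 and 275.6 for Schwann cell and 96.7 and 46.8 for cartilage and bone markers in replicates 1 and 2. Cartilage and bone markers then fell to 4.72 and 3.97 FPKM at P14, where 4 of 5 were called lower than at P2. Whether any of these markers bears on the values below was not tested.

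The start regions of 5 promoters are shown because they belong to the genes whose levels are compared most closely below: the 3 Mef2 genes, and Six4 and Six5, whose ratio differed between all stages. RefSeq start regions (GRCm38.p6, 250 bases before to 50 after the start) were matched for 8 of the 9 genes, and Eya1 is named only. Capitals mark matches on either strand to the MEF2 consensus, the MEF3 core TCAGGTT, the E-box CANNTG, the GC box GGGCGG, the TATA box TATAAA and the box CCAAT. No base lay in more than 1 motif in any of these windows.
Mef2a, chr7:67372809-67373108, minus strand: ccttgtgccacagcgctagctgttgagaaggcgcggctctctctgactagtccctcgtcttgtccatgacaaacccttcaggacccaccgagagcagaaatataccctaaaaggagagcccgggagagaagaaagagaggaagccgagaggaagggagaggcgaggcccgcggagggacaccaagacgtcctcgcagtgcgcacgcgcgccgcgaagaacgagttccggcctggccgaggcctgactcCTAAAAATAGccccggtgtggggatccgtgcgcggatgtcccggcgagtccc
Mef2c, the first of 3 listed starts, chr13:83503784-83504083, plus strand: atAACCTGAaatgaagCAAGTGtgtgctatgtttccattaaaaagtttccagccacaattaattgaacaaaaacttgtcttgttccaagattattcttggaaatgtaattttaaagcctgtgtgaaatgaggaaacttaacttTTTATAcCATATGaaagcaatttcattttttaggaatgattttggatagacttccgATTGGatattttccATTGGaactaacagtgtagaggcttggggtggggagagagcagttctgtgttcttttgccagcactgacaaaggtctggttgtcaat
Mef2d, chr3:88142122-88142421, plus strand: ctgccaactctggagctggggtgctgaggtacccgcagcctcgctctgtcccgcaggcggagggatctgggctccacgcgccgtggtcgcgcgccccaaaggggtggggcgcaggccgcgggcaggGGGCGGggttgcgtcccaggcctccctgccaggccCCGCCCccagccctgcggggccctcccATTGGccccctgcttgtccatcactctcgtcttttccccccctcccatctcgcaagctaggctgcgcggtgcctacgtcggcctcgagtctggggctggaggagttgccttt
Six4, the first of 2 listed starts, chr12:73113196-73113495, minus strand: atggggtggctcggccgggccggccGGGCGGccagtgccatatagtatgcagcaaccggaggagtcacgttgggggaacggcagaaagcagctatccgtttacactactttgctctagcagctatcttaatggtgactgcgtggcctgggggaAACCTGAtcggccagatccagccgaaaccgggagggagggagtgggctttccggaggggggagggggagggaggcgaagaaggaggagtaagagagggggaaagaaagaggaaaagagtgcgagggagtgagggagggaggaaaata
Six5, chr7:19094294-19094593, plus strand: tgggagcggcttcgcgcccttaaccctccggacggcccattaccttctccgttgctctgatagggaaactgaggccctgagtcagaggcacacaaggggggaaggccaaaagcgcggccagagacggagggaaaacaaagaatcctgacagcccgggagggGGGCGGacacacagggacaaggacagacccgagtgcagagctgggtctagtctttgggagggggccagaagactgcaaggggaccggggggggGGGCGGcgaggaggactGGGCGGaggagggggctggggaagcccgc

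The Mef2a window held a match to the MEF2 consensus, CTAAAAATAG, from -2 to 8 with the start site counted as 1. Of 32851 promoters of this length 3.19% held this motif. The MEF3 core was present in the printed windows of Mef2c (-248 to -242) and Six4 (-97 to -91), both as its reverse complement, against 4.07% of all promoters. The other listed starts of Mef2c, with 47.0% and 48.3% G+C, and of Six4 held no MEF3 core. The Mef2c window was A/T-rich, with 35.7% G+C and 1 CpG, and carried a TATA box (13.6% of all promoters), 2 E-boxes (72.3%) and 2 CCAAT boxes (37.4%). The Mef2d window had 72.0% G+C and 24 CpG, with 2 GC boxes (35.7% of all promoters) and 1 CCAAT box. The Six5 window had 66.0% G+C and 3 GC boxes. These matches are descriptions of letters, and no binding was measured.

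Mef2c was the most abundant of the 9 genes at every stage, followed by Mef2a or Mef2d, then Eya4, Eya3, Six4, and last Eya1, Six5 and Six2. Mef2c had a level of 55.6 ± 1.82 FPKM at P2, 56.3 ± 5.18 at P7 and 62.2 ± 5.49 at P14. The libraries of neighbours in this order did not overlap at P7. At P2 the libraries of Six5 (1.73 and 2.26 FPKM) overlapped with those of Eya1 (1.64 and 1.87). At P14 the libraries of Mef2d overlapped with those of Mef2a, and those of Six4 with those of Eya1. The order therefore changed in 2 places: Mef2d reached Mef2a, and Eya1 passed Six5 and reached Six4.

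**Figure D1:**
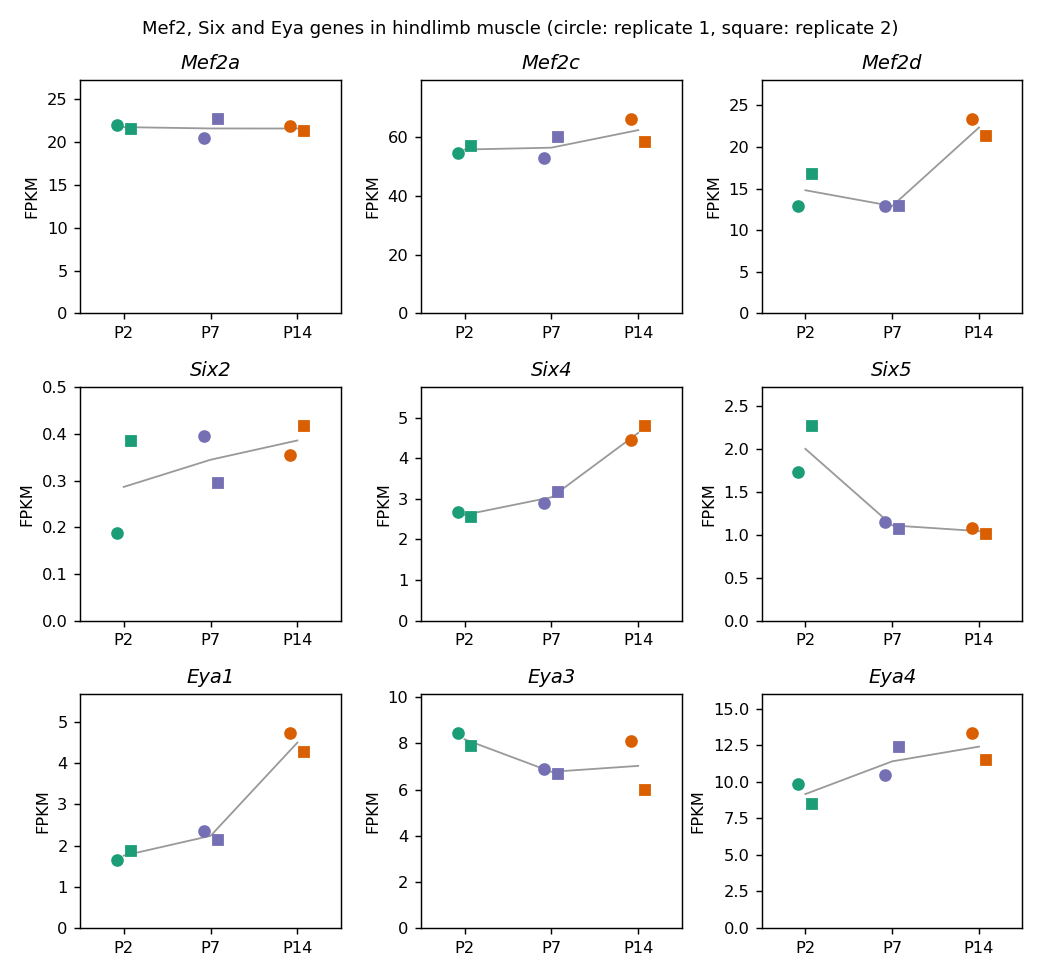
FPKM (y axis, from 0, a scale of its own per gene) of the 9 genes in each library by stage (x axis); circles are replicate 1, squares replicate 2, and the line joins the stage means. Both P14 libraries of Mef2d, Six4 and Eya1 lie above all P2 and P7 libraries, both P2 libraries of Six5 lie above the other 4, and Mef2a stays between 20.4 and 22.7 FPKM.

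For P14 against P2, 2 of the 8 tested genes were called higher, Six4 and Eya1, and 0 lower. Over all tested genes 24.3% were called in that comparison, 11.5% higher and 12.9% lower. With 8 genes, neither likeness to these shares nor a difference from them can be read. For P14 against P7, 2 were called higher, Mef2d and Eya1, and 0 lower, where 10.3% of all genes were called (8.75% higher and 1.60% lower). At P7 against P2 none of the 8 was called, where 1.29% of all genes were (0.111% higher and 1.18% lower). At an unadjusted limma p below 0.05 that comparison held 1 of the 8, Six5, along with 3729 of all tested genes, and the authors' deposited table gave unadjusted p-values below 0.05 for 3, Six4, Eya1 and Eya4. The F test over the 3 stages called Six4 (adjusted p = 0.0415) and Eya1 (adjusted p = 0.0144), with 21.1% of all genes called.

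Scaling between libraries bears on every direction below. As deposited, the median log2 change of all tested genes was -0.27 for P7 against P2, 0.23 for P14 against P7 and -0.05 for P14 against P2. Calls split into 15 higher and 160 lower, 1187 and 217, and 1557 and 1744. With median-of-ratios scaling they split into 40 and 24, 1060 and 745, and 2513 and 2066. With scaling by summed protein-coding FPKM they split into 62 and 198, 529 and 1422, and 1259 and 4998, and the medians were -0.16, -0.17 and -0.34. Ratios of 2 genes within a library do not depend on such scaling and are given below for the families.

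**Figure D2:**
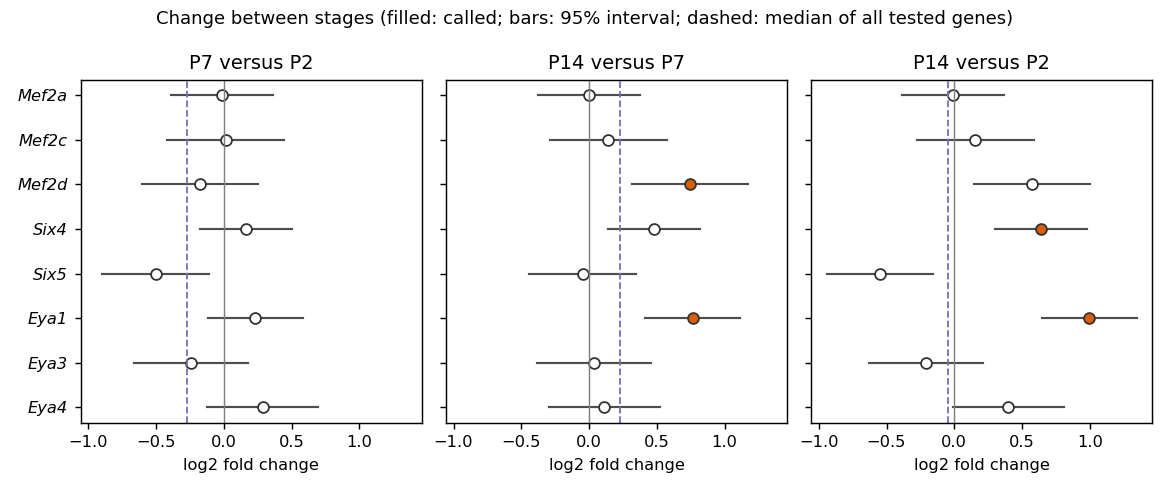
Log2 change (x axis) of the 8 tested genes in the 3 comparisons; points are limma estimates, bars their 95% intervals, filled points were called, and the dashed line is the median of all tested genes. Eya1 at 1.00 and Six4 at 0.64 are the filled points of P14 versus P2, and no point is filled for P7 versus P2.

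Among the Mef2 genes, Mef2d was the member that rose, and it did so in the second postnatal week. Mef2d (ENSMUSG00000001419, chromosome 3, 88142372 to 88172086 on GRCm38, plus strand) was at 12.9 and 16.7 FPKM in the P2 libraries, 12.9 in both P7 libraries and 23.4 and 21.3 in the P14 libraries. The P14 libraries were above the other 4. The log2 change from P7 to P14 was 0.75 ± 0.18 SE (limma adjusted p = 0.0480), and both P14 libraries were higher than both P7 libraries. This call was lost without P7 replicate 1 (log2 change 0.74, adjusted p = 0.217), P7 replicate 2 (0.75, adjusted p = 0.209), P14 replicate 1 (0.68, adjusted p = 0.248) or P14 replicate 2 (0.81, adjusted p = 0.108). It was also lost with a replicate block (0.75, adjusted p = 0.0998), with a term for Xist expression (0.83, adjusted p = 0.0608) and with no filter (0.75, adjusted p = 0.119). With scaling by summed protein-coding FPKM it was lost too, and the log2 change was smaller (0.25, adjusted p = 0.163). The change from P2 to P14, 0.57 ± 0.18 SE, missed the threshold (limma adjusted p = 0.0608), and was called without P2 replicate 2 (0.75, adjusted p = 0.0257), with median-of-ratios scaling (0.61, adjusted p = 0.00806) and with a filter of 5 FPKM (0.57, adjusted p = 0.0485). The last 531 bases of Mef2d overlap the antisense gene 1700113A16Rik, which was at 3.69 and 5.34 FPKM at P2, 3.67 and 3.84 at P7 and 5.36 and 5.33 at P14. The kit marks strand, but whether the counting used it is not given, so reads of the shared stretch cannot be told apart.

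Mef2a and Mef2c showed no called change in any comparison or under any alternative setting. Mef2a (chromosome 7, 67231163 to 67372858, minus strand) was at 22.0 and 21.4 FPKM at P2, 20.4 and 22.7 at P7 and 21.8 and 21.3 at P14, with the 3 stages overlapping. Its highest library was 1.11 times its lowest. The log2 change from P2 to P14 was -0.01, with a 95% interval from -0.39 to 0.37. With median-of-ratios scaling its log2 change was 0.32 from P2 to P7 and -0.29 from P7 to P14 (limma adjusted p = 0.264 and 0.210). The gene Lysmd4 on the other strand overlaps 76168 bases of the Mef2a span, at 1.54 to 2.93 FPKM. Mef2c (chromosome 13, 83504034 to 83667079 in the deposited locus, plus strand) was at 54.3 and 56.9 FPKM at P2, 52.6 and 59.9 at P7 and 66.1 and 58.3 at P14. The P14 libraries overlapped with those of P7 and lay above those of P2. The log2 change from P2 to P14 was 0.16 ± 0.18 SE (limma adjusted p = 0.558, 95% interval from -0.28 to 0.59). MEF2C is also made in endothelium, whose 6 markers had a summed level of 54.9 and 93.0 FPKM at P2, 77.1 and 72.8 at P7 and 118.2 and 104.0 at P14. Of these markers 1 of 6, Emcn, was called higher in the comparison of P14 with P2, and all 6 were above 0. Their part in the Mef2c or Mef2d values was not tested.

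Mef2d made up a larger share of Mef2 expression at P14 than before. It held 14.4% and 17.6% of the summed FPKM of Mef2a, Mef2c and Mef2d in the P2 libraries, 15.0% and 13.5% at P7, and 21.1% ± 0.0575 (SD, n = 2) at P14. The share of Mef2c was 60.4% ± 0.765 at P2, 62.0% ± 1.05 at P7 and 58.6% ± 1.10 at P14 (SD, n = 2 libraries per stage). The share of Mef2a was 23.6% ± 1.48, 23.8% ± 0.0146 and 20.3% ± 1.04 at the 3 stages (SD, n = 2 libraries per stage). The Mef2d to Mef2a ratio was 0.586 and 0.781 at P2, 0.631 and 0.570 at P7 and 1.07 and 1.00 at P14. Both P14 libraries exceeded the other 4 in this ratio and in the Mef2d to Mef2c ratio. The Mef2c to Mef2a ratio separated in the same way, at 3.03 and 2.74 at P14 against 2.47 to 2.66 before. How often ratios of 2 genes separate like this was not tested. With 2 libraries against 2, an exact two-sided permutation test cannot go below p = 0.333. That was its value for each of these ratios at P14 against P7 and against P2.

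**Figure D3:**
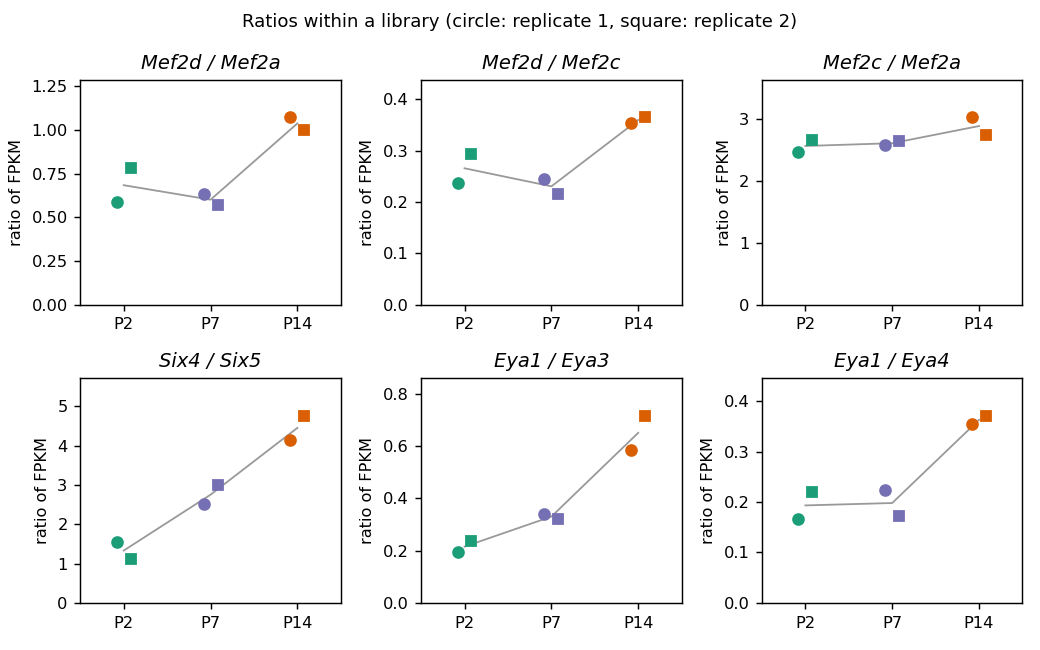
Ratio of the FPKM of 2 genes in the same library (y axis, from 0) by stage (x axis); circles are replicate 1, squares replicate 2, and lines join the stage means. Mef2d over Mef2a is near 1 at P14 and below 0.8 before, and Six4 over Six5 goes from 1.12 and 1.54 at P2 to 4.14 and 4.77 at P14.

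Six4 was called higher at P14 than at P2, and Six5 was lower in every P7 and P14 library than in the P2 libraries without passing the test. Six4, one of the SIX-family factors of the embryonic muscle lineage (ENSMUSG00000034460, chromosome 12, 73099609 to 73113456 on GRCm38, minus strand), was at 2.66 and 2.54 FPKM at P2, 2.90 and 3.18 at P7 and 4.45 and 4.79 at P14. The 3 stages did not overlap, and P14 was the highest. The log2 change from P2 to P14 was 0.64 ± 0.14 SE (limma adjusted p = 0.0208), with both P14 libraries above both P2 libraries. This call was lost without P14 replicate 1 (log2 change 0.69, adjusted p = 0.0950), P14 replicate 2 (0.60, adjusted p = 0.105), P7 replicate 1 (0.64, adjusted p = 0.0515) or P7 replicate 2 (0.64, adjusted p = 0.0522). It was also lost with a term for Xist expression (0.60, adjusted p = 0.0539), with no filter (0.64, adjusted p = 0.0570) and with scaling by summed protein-coding FPKM, where the log2 change was smaller (0.34, adjusted p = 0.115). From P7 to P14 the log2 change was 0.48 ± 0.14 SE (limma adjusted p = 0.0717), and it stayed 0.48 without P2 replicate 1 or P2 replicate 2. It was called in the 4 libraries compared alone (limma adjusted p = 0.0444). With median-of-ratios scaling it was 0.24 (adjusted p = 0.297), and with scaling by summed protein-coding FPKM 0.06 (adjusted p = 0.796). From P2 to P7 the Six4 log2 change was 0.16 ± 0.14 SE (limma adjusted p = 0.463). With these 2 scalings it was 0.42 and 0.27, and not called.

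Six5, a SIX-family gene that lies beside the myotonic dystrophy kinase gene Dmpk (chromosome 7, 19094594 to 19098549, plus strand), was at 1.73 and 2.26 FPKM at P2, 1.152 and 1.062 at P7 and 1.08 and 1.01 at P14. Both P2 libraries were above the other 4, and P7 overlapped with P14. The log2 change was -0.50 ± 0.17 SE from P2 to P7 (limma adjusted p = 0.129) and -0.55 ± 0.17 SE from P2 to P14 (limma adjusted p = 0.0531), so neither passed. The change from P2 to P14 was called with median-of-ratios scaling (-0.51, adjusted p = 0.0318), with scaling by summed protein-coding FPKM (-0.75, adjusted p = 0.00855) and with a pseudocount of 5 (-0.21, adjusted p = 0.0480). Dmpk ends 772 bases before Six5 on the same strand and had 28.6 and 48.4 FPKM at P2, 26.1 and 24.6 at P7 and 53.9 and 47.4 at P14. Its P7 libraries lay below its P2 libraries, as did those of Six5 and of 53.9% of all tested genes. The P14 libraries of Dmpk lay above its P7 libraries, as did those of 53.8% of all tested genes. Those of Six5 overlapped between P7 and P14. The satellite cell markers, 4 of which were measured and none at 0, had a summed level of 14.3 and 14.7 FPKM at P2, 9.91 and 8.60 at P7 and 6.61 and 6.42 at P14. Of these 4, 3 were called lower at P14 than at P2, where 12.9% of all tested genes were. The part of these or of other cell type markers in the Six5 values was not tested.

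The Six4 to Six5 ratio was 1.54 and 1.12 in the P2 libraries, 2.52 and 2.99 at P7 and 4.14 and 4.77 at P14. The 3 stages did not overlap, and the log2 difference from P2 to P14 was 1.76 (exact two-sided permutation p = 0.333, the smallest that 2 against 2 allows). Six2, a SIX-family factor of kidney and connective tissue progenitors, lay between 0.187 and 0.417 FPKM in the 6 libraries, with the stages overlapping, and was below the filter and not tested. Six5 was nearest to the filter among the 8 that passed it, at 1.01 FPKM in its lowest library. Outside the 9, Six3 and Six6 stayed below 0.2 FPKM.

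From P2 to P14, Eya1 had the largest log2 change of the 8 tested genes in the FPKM as deposited. With scaling by summed protein-coding FPKM, Six5 was at -0.75 and Eya1 at 0.70. Eya1, a coactivator of SIX-family factors (ENSMUSG00000025932, chromosome 1, 14168954 to 14310235 on GRCm38, minus strand), was at 1.64 and 1.87 FPKM at P2, 2.34 and 2.13 at P7 and 4.73 and 4.27 at P14. The 3 stages did not overlap. In the FPKM as deposited, most of the rise fell between P7 and P14, but this timing depends on scaling. Less the median of all tested genes, the Eya1 log2 change was 0.50 from P2 to P7 and 0.53 from P7 to P14. The authors' deposited folds for these steps were 1.60 and 1.70. The log2 change from P2 to P14 was 1.00 ± 0.15 SE (limma adjusted p = 0.00639, higher in both libraries), above that of 93.0% of all tested genes. It was called under each of the 15 alternatives that could be run for it, at adjusted p from 0.00266 to 0.0490. From P7 to P14 the log2 change was 0.77 ± 0.15 SE (limma adjusted p = 0.0321). That call was lost without P7 replicate 1 (0.81, adjusted p = 0.162), P7 replicate 2 (0.72, adjusted p = 0.177), P14 replicate 2 (0.83, adjusted p = 0.0819) or P14 replicate 1 (log2 change 0.70), with no filter (adjusted p = 0.104) and with scaling by summed protein-coding FPKM (0.36, adjusted p = 0.101). A replicate block removed that call too. From P2 to P7 the Eya1 log2 change was 0.23 ± 0.15 SE and not called (limma adjusted p = 0.328).

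Eya3 and Eya4 were more abundant than Eya1 at every stage and were called in no comparison. Eya4 (chromosome 10, minus strand), best known for its role in hearing and heart muscle, was at 9.83 and 8.50 FPKM at P2, 10.45 and 12.35 at P7 and 13.3 and 11.5 at P14. The P2 libraries lay below the other 4, while P7 and P14 overlapped. Its log2 change from P2 to P14 was 0.40 ± 0.17 SE (limma adjusted p = 0.136). Eya3 (chromosome 4, plus strand) was at 8.44 and 7.91 FPKM at P2, 6.88 and 6.66 at P7 and 8.09 and 5.96 at P14, and its P14 libraries spanned those of P7 and overlapped with P2. Its log2 change from P2 to P14 was -0.21 ± 0.18 SE (limma adjusted p = 0.425). It was called lower when scaled by summed protein-coding FPKM (-0.54, adjusted p = 0.0300). Eya2, outside the 9, was at 1.11 ± 0.311, 1.11 ± 0.321 and 1.47 ± 0.401 FPKM (SD, n = 2 libraries per stage), and the changes were not called.

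Within the Eya family the share of Eya1 was highest at P14 and that of Eya3 at P2. Eya1 held 8.26% and 10.2% of the summed FPKM of Eya1, Eya3 and Eya4 at P2, 11.9% and 10.1% at P7, and 18.1% and 19.7% at P14. Eya3 held 42.4% and 43.3% at P2, 35.0% and 31.5% at P7, and 30.9% and 27.4% at P14. The share of Eya4 was between 46.5% and 58.4%. The Eya1 to Eya3 ratio was 0.195 and 0.236 at P2, 0.340 and 0.320 at P7 and 0.585 and 0.717 at P14, with no overlap between stages. The exact two-sided permutation p was again 0.333, the smallest possible.

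Without regard to the test, the libraries of P14 and P2 did not overlap for 6 of the 8 genes, 5 higher (Mef2c, Mef2d, Six4, Eya1 and Eya4) and 1 lower (Six5). Over all tested genes 63.7% did not overlap, 28.5% higher and 35.2% lower, so separation was common with 2 libraries a stage. For P14 against P7, 3 were higher without overlap (Mef2d, Six4 and Eya1), where 69.1% of all genes did not overlap, 53.8% higher and 15.3% lower. For P7 against P2, 3 were higher (Six4, Eya1 and Eya4) and 2 lower (Six5 and Eya3), where 60.3% did not overlap, 6.42% higher and 53.9% lower. The median log2 change of the 8 from P2 to P14 was 0.28 against -0.05 over all genes. From P2 to P7 it was 0.00 against -0.27, and from P7 to P14 0.13 against 0.23.

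In the authors' deposited table Eya1 was 2.75-fold higher at P14 than at P2 (p = 5e-05, not adjusted), Six4 1.89-fold (p = 0.0006), Mef2d 1.63-fold (p = 0.0127) and Eya4 1.43-fold higher (p = 0.0177). In the authors' deposited table Six5 was listed at -1.78, the sign for lower, with an unadjusted p of 0.0117. These are 5 of the 9 genes with an unadjusted p below 0.05, against 12.3% of all genes listed for that comparison. That share, like the one given next, is over 39170 listed genes. They include genes listed with no fold change, such as Six3, Six6 and Mef2b, while 13566 genes passed the filter used here. The share is therefore not a like background for these 9 genes, of which 8 passed that filter. For P7 against P2 the authors' deposited table listed Eya4 at 1.55 (p = 0.00375), Eya1 at 1.60 (p = 0.0110) and Six4 at 1.46 (p = 0.0341), against 4.92% of genes listed with an unadjusted p below 0.05. For that step the authors' deposited table listed Mef2a at 1.24, Mef2d at 1.10 and Eya3 at 1.03, higher at P7, where the limma log2 changes from the FPKM were -0.01, -0.17 and -0.24. With median-of-ratios scaling they were 0.32, 0.15 and 0.07. None of these passed a test. The authors' deposited table for P14 against P7 listed Mef2a at -1.19, Mef2c at -1.07, Eya3 at -1.15 and Eya4 at -1.09, lower at P14, where the limma log2 changes were 0.00, 0.14, 0.03 and 0.11. With median-of-ratios scaling these were -0.29, -0.16, -0.24 and -0.17, and none passed a test. The deposited comparisons share stages and libraries with each other.

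Of the partners of MEF2, 16 were tested. At P14 against P2, 1 was called higher and 2 were called lower, with a median log2 change of -0.10. Over all tested genes 11.5% were called higher and 12.9% lower, with a median of -0.05. Ppp3ca, a catalytic subunit of the phosphatase calcineurin, rose from 24.8 ± 1.55 FPKM to 53.8 ± 6.92 (log2 change 1.08, limma adjusted p = 0.00859). Mapk7, the kinase ERK5 that phosphorylates MEF2, fell from 4.71 ± 0.456 to 1.91 ± 0.453 (limma adjusted p = 0.00994). Prkd1, protein kinase D1, which phosphorylates class IIa deacetylases, fell from 1.85 ± 0.309 to 0.713 ± 0.104 (limma adjusted p = 0.0228). Vgll4, a cofactor of TEAD factors, had a log2 change of -0.56 and was not called. None of the class IIa deacetylase genes Hdac4, Hdac5, Hdac7 and Hdac9 was called, and their log2 changes ran from -0.49 for Hdac9 to 0.32 for Hdac4.

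Of the SIX-family and EYA partners, 6 were tested, with 1 called lower and none higher at P14 against P2. Over all tested genes 12.9% were called lower and 11.5% higher. Tle3, a Groucho-type corepressor, fell from 8.79 ± 0.254 to 4.36 ± 0.549 FPKM (limma adjusted p = 0.0247). Sobp, Tle4 and Tle2 had log2 changes of 0.47, 0.45 and -0.34 and were not called. Dach1 stayed between 2.24 and 3.29 FPKM, and Dach2 was below the filter.

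Of the 14 muscle genes listed as regulated by MEF2, 10 were called higher at P14 than in the P2 libraries and 0 lower, with a median log2 change of 1.21. Over all tested genes 11.5% were called higher, with a median of -0.05, and of the 7 skeletal muscle markers, of which Ckm and Tnnt3 stand on these lists too, 4 were called higher and 1 lower, with a median of 1.40. Mb, myoglobin, was at 5.01 and 20.0 FPKM at P2 and 192.3 and 182.1 at P14. Xirp2, a protein of the sarcomere's attachment sites, was at 20.7 and 30.6 at P2 and 182.4 and 145.3 at P14. Ckm, muscle creatine kinase, and Pgam2, muscle phosphoglycerate mutase, had log2 changes of 1.60 and 1.56 (limma adjusted p = 0.0149 and 0.0163). Of 13 genes listed for SIX-family factors, 9 were higher and 0 lower, with a median of 1.48. Myh4, the myosin of type IIb fibres, and Pvalb, a calcium buffer of fast fibres, led with log2 changes of 5.52 and 4.94, and their P2 libraries differed widely, at 11.7 and 247.5 FPKM for Myh4 and 26.5 and 196.2 for Pvalb. Casq1, calsequestrin, had a log2 change of 2.21 and Actn3, a fast fibre actinin, of 2.46. Myog and Eno3 stand on both lists: Eno3, muscle enolase, was called higher (log2 change 1.38), whereas Myog, myogenin, had a log2 change of -0.54 and was not called. At P14 against P7 the lists held 9 of 14 and 4 of 13 called higher, with medians of 1.08 and 1.16, where 8.75% of all tested genes were called higher. Of the 7 skeletal muscle markers, 3 were called higher there and 1 lower, with a median of 1.13. These lists were chosen with results of these data known, and how far the factors bear on the genes was not tested.

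**Figure D4:**
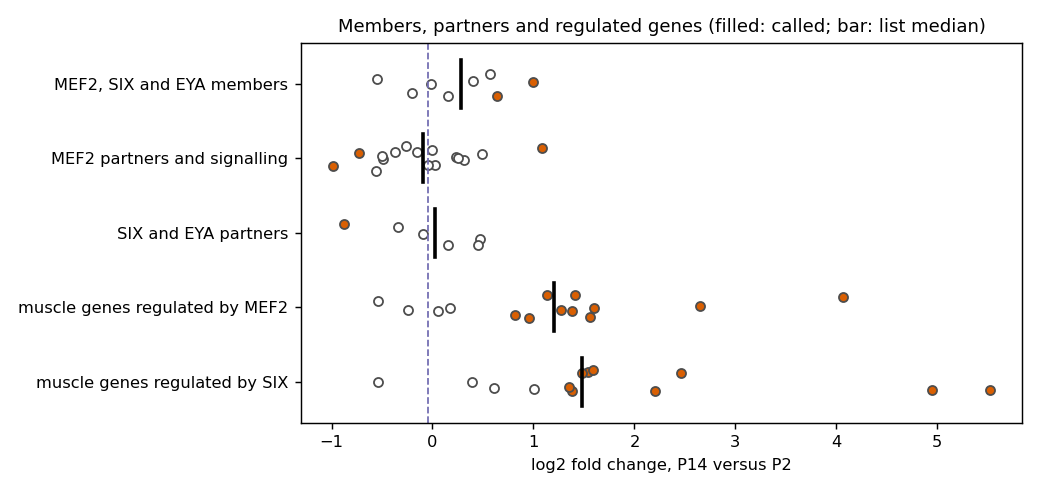
Log2 change from P2 to P14 (x axis) of the tested genes of 5 lists; filled points were called, the black bar is the list median, and the dashed line is the median of all tested genes. The medians of the MEF2- and SIX-regulated genes lie at 1.21 and 1.48, and those of the factors and their partners between -0.10 and 0.28.

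Across the 6 libraries, the genes most like each factor were ranked by Pearson's r of log2(FPKM + 1) among 6014 protein-coding genes that averaged 5 FPKM or more. With 6 libraries that share stage and scaling, high values are common: 762 genes reached 0.95 or more with Mef2d and 477 with Eya1, but 24 with Mef2c, 1 with Mef2a and none with Eya4. Nearest to Mef2d were Cuta (0.999), Mrs2 (0.998) and Poldip2 (0.997), and nearest to Eya1 were Sorl1, Gm21685 and Tnfaip2 (0.998 each). Six4 was nearest to Gm14326 (0.996), Ccl27a (0.989) and Mlxipl (0.989), and Six5 to Pigq (0.998), Pf4 (0.996) and Trio (0.995). Mef2c was nearest to Eif3j1 (0.994), Clock (0.988) and Zdhhc17 (0.987). Mef2a was nearest to Tbp (0.953), ATF7 (0.912) and Zhx1 (0.908), and Eya3 to Snrpf (0.960), Anxa7 (0.960) and Nvl (0.959). Eya4 was nearest to the mitochondrially encoded mt-Nd6 (0.9497) and to Gm10709 (0.948) and Gm10222 (0.943). Among the factors themselves, Six4 and Eya1 had the highest r, 0.963, and Six5 and Eya4 the lowest, -0.886. These values describe 6 points and carry no test.

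**Figure D5:**
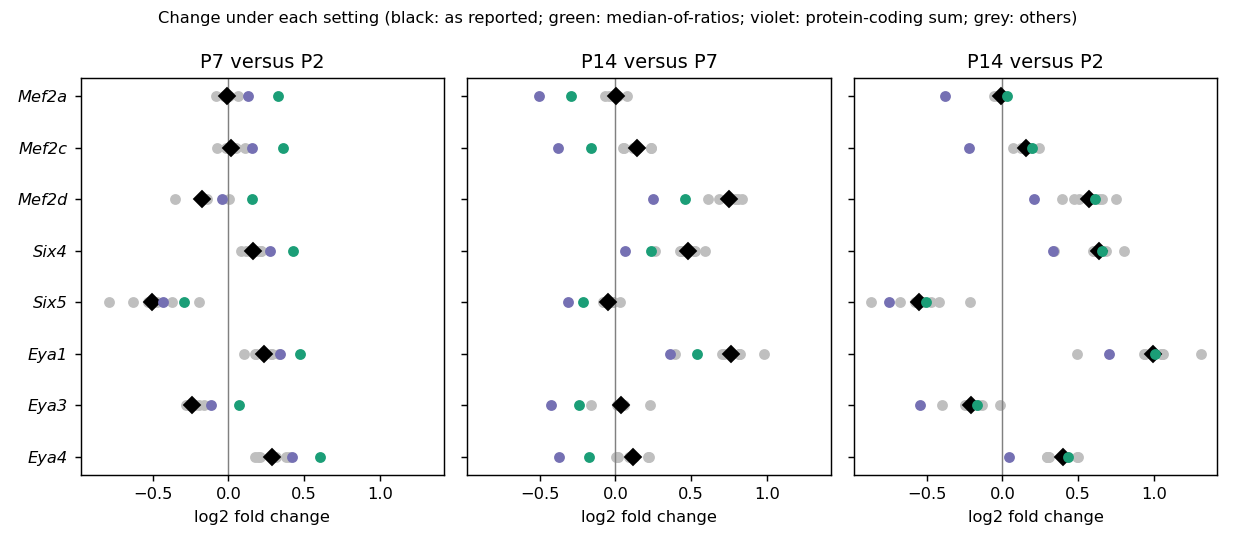
Log2 change (x axis) of the 8 tested genes in the 3 comparisons under every setting; black diamonds are the values as reported, green and violet points the 2 other scalings, grey points the remaining settings. Eya1, Six4, Mef2d and Eya4 stay above 0 and Six5 and Eya3 below 0 from P2 to P14 under every setting. Mef2a and Mef2c lie on both sides of 0, with Mef2c below 0 only when scaled by summed protein-coding FPKM.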

How the data were processed

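Hindlimb muscle RNA was extracted in Trizol, and 200 ng entered a stranded library kit with ribosomal depletion, per the labels' protocols. The submitters' processing notes name CASAVA 1.2-14, FastQC 0.10.1, TopHat2 2.0.8, Cufflinks 2.2.1, Cuffdiff 2.2.1 and GRCm38; the annotation and settings are not given in the sources used here. The deposited values are FPKM, 1 column per library, with no stated scaling between libraries. The authors also deposited comparisons of stages with a fold as ratio, written as a negative score for a fall, and an unadjusted p-value, per the file headers.

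From the FPKM, log2(FPKM + 1) was computed for genes with at least 1 FPKM in at least 2 libraries (13566 genes). Stage means over the 6 libraries were estimated with limma 3.58.1 in R 4.3.3 (variance trend, 3 residual and 3.80 prior degrees of freedom), with two-sided p-values adjusted after Benjamini-Hochberg over every gene tested. The median SE of a log2 change was 0.19. Absolute depth is unknown, so no counting interval is given. The fit was tested on simulated data with known changes. Ratios within a library used exact permutation tests in scipy 1.17.1. Table starts were raised by 1 base to match GENCODE M21. Start regions came from RefSeq (GRCm38.p6).

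The members and lists were chosen with earlier results of these data known. Named genes are the listed genes of the Mef2, Six- and Eya-families (1 result of these families is not reported here), up to 4 of a list with the largest change from P2 to P14, and the 3 genes most like each factor; marker lists are given by sums and counts instead. List symbols without a match (Acta1, Cdh15, Adgre1 and Tubb3) are not analysed here. Alternatives were other pseudocounts, filters and scalings, no variance trend, a replicate block, a term for Xist above 10 FPKM, only the 4 libraries compared, and each library left out in turn.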

Additional observations from a re-analysis of the deposited data

How the results depend on the processing

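Values for the 8 tested genes and for Eya2, which is outside the 9, were recomputed under each alternative that could be run, 420 values in all. Of these, 357 kept direction and side of the threshold, 10 passed it newly, 22 no longer passed and 31 changed sign. Eya1 from P2 to P14 was called under all 15 alternatives run for it (log2 0.49 to 1.31), Six4 under 8 of 15, and Mef2d from P7 to P14 under 8 of 16. Where a call or sign changed, the cause was not tested beyond what the alternative itself removes.

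Of the 8 tested genes, 2 were called for P14 against P2, 2 for P14 against P7 and 2 by the F test. The share of all tested genes called also moved with the setting. For P14 against P2 it was 24.3% as reported, 5.2% with no filter and 31.1% with a filter of 5 FPKM. It was 18.2% with the Xist term and 33.8% with median-of-ratios scaling. For P14 against P7 it was 10.3% as reported, 0.0237% with no filter and 24.4% with a filter of 5 FPKM. It was 7.51% with the Xist term and 14.3% with scaling by summed protein-coding FPKM. Six4, Six5 and Eya1 did not pass the filter of 5 FPKM. For P14 against P2 the count was 1 with no filter, with a filter of 5 FPKM and with the Xist term, 4 with median-of-ratios scaling, and 1 to 3 when 1 library was left out. For P14 against P7 it was 0 with no filter and with scaling by summed protein-coding FPKM, 1 with a filter of 5 FPKM and with the Xist term, and 0 to 3 with 1 library left out. For the F test it was 0 with no filter, 1 with a filter of 5 FPKM and with the Xist term, and 0 to 3 with 1 library left out.

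With a replicate block the counts were 2 for P14 against P2, 0 for P14 against P7 and 1 by the F test. Deviations of same-numbered libraries correlated at -0.02 for P2 and P7, -0.16 for P2 and P14 and 0.03 for P7 and P14. The numbers are those of the titles, and the descriptions number some libraries otherwise. Such correlations cannot show whether libraries of different stages were paired, and the other numbering was not tried. Over all genes the block called 35, 301 and 2404 for P7 against P2, P14 against P7 and P14 against P2, where 175, 1404 and 3301 were called without it.

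Sign changes concerned log2 changes that were not called. With median-of-ratios scaling, Mef2a was at 0.32, -0.29 and 0.030 for P7 against P2, P14 against P7 and P14 against P2. For P7 against P2, Mef2d was at 0.15, Eya3 at 0.068 and Eya2 at 0.19. For P14 against P7, Mef2c was at -0.16, Eya3 at -0.24 and Eya4 at -0.17. With scaling by summed protein-coding FPKM, Mef2a was at 0.13 and Eya2 at 0.080 for P7 against P2. For P14 against P7, Mef2a was at -0.50, Mef2c at -0.38, Eya3 at -0.43, Eya4 at -0.37 and Eya2 at -0.063, and Mef2c for P14 against P2 was at -0.22. With the Xist term, for P14 against P7, Mef2a was at -0.044 and Six5 at 0.033. With 1 library left out, P7 against P2 ranged from -0.084 to 0.061 for Mef2a, -0.079 to 0.11 for Mef2c, -0.35 to 0.0034 for Mef2d and -0.16 to 0.15 for Eya2. P14 against P7 then ranged from -0.072 to 0.074 for Mef2a and -0.16 to 0.23 for Eya3, and P14 against P2 from -0.028 to 0.0075 for Mef2a.

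Counts over all genes also moved by more than 1.5 times. For P7 against P2 they were 29 and 279 at pseudocounts of 0.1 and 5, 13 with no filter, 64 with median-of-ratios scaling, 37 with the Xist term, 55 in the 4 libraries alone, and 7 to 1111 with 1 library left out. For P14 against P7 they were 7 with no filter, 3412 in the 4 libraries alone and 16 to 3256 with 1 left out. For P14 against P2 they were 1534 with no filter, 6257 with scaling to protein-coding genes and 1023 to 3419 with 1 left out. With 2 libraries a stage, leaving 1 out assumes that the lone library varies like the others.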
